A study of Sus scrofa with 599 samples.

Results

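The 26S proteasome is the main protease of the cytosol and nucleus, and it takes in proteins that carry a ubiquitin chain, unfolds them and cuts them into short peptides. Its 20S core is a barrel of alpha and beta subunits, with the cutting sites on the inner face of the beta rings, and its 19S cap holds a ring of ATPases and a set of non-ATPase subunits that bind and trim ubiquitin. In adipose tissue, as in other tissues, nearly every cell uses it, and interferon exchanges 3 of the core's catalytic subunits for inducible ones (PSMB8, PSMB9 and PSMB10), which gives the immunoproteasome that feeds peptides to MHC class I molecules.

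The genes were taken by symbol from the table of protein-coding genes (PCGs) as those named PSMA, PSMB, PSMC, PSMD, PSME, PSMF or PSMG followed by a number, which gave 44 of 21280 PCGs, 14821 of which carry a symbol. By their known roles they were 6 alpha and 5 constitutive beta subunits of the core, 3 inducible beta subunits, 6 ATPase and 11 non-ATPase subunits of the cap, 3 chaperones of cap assembly (PSMD5, PSMD9 and PSMD10), 1 chaperone of core assembly (PSMG3), 4 activators that dock on the core (PSME1 to PSME4) and 1 inhibitor (PSMF1). The remaining 4 were PSMA8, a testis subunit, PSMB11, a subunit of the thymus, and PSMC3IP and PSME3IP1, which share only the letters of their names (PSMC3IP acts in meiotic recombination, and PSME3IP1 binds PSME3). The symbols PSMA6, PSMB5, PSMB6, PSMG1, PSMG2 and PSMG4 matched no row of the table, so 2 of the 3 constitutive catalytic subunits were not analysed here, and PSMB7, the trypsin-like site that PSMB10 replaces, stood for them.

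RNA-seq was analysed for 236 libraries of adult female Bama pigs, a Chinese minipig breed, 2 years old when feeding began. The normal-diet pigs (NC) gave 9 libraries of the greater omentum (GOM), 12 of mesenteric adipose (MAD), 12 of retroperitoneal adipose (RAD) and 5 of the upper layer of backfat (ULB), of which GOM, MAD and RAD are visceral adipose tissues (ATs) and ULB is subcutaneous. Pigs that gained weight (WG) ate a high-fat diet for 22 weeks and gave 45, 36, 39 and 38 libraries of these ATs, and pigs that then lost weight (WL) followed that diet with 12 weeks on 10% of the calories of the normal group and gave 10 libraries per AT. NC pigs had neither phase, so WL differed from NC in both. Every library is a bulk tissue sample, in which fewer cells of a type and less RNA per cell cannot be told apart. The labels do not say which samples came from 1 animal, so p-values measure the spread between these libraries.

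The libraries differed in ways that the groups do not name. They held 3337098 to 22939420 estimated counts on PCGs, and PCGs took 65.6% to 96.9% of the TPM, a level scaled to transcript length and to the library total, with 40 libraries under 88%, among them 7 of 9 NC GOM libraries and 17 of 40 WL libraries. A larger split was made on the first principal component of 15026 PCGs outside the proteasome genes, with AT means removed and diet left in. It took 28.6% of the variance and ran from -74.7 to 71.8. The libraries were cut at the widest gap in its middle part, a rule that finds a gap in any data. This gave 101 libraries (library set 1, at 21.8 and above) and 135 libraries (library set 2, at 11.3 and below). Set 1 was higher in mitochondrially encoded genes such as ND4 and CYTB. It held 30 of 38 NC libraries (9 of 9 in GOM), 71 of 158 WG libraries and 0 of 40 WL libraries. Of the replicate numbers present in several ATs, 43 of 45 in WG but 6 of 12 in NC stayed in 1 set. The labels name no such batch. Diet and library set therefore overlap, and comparisons of nutritional groups are given over all libraries and, where a set holds both groups, within that set. A comparison within a set also selects its libraries by their expression. For NC against WL in GOM no set holds both groups, and diet and library set cannot be told apart there.

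The promoters of PSMB9 and PSMB10 hold a sequence that interferon acts through, which was not found in that of PSMB8, and they are shown beside that of a constitutive subunit, with RefSeq start sites on Sscrofa11.1. In the promoter of PSMB10 (chr6:28547610-28547859, minus strand, the 250 bases before the start site), the capitals mark the core of the interferon-stimulated response element, which is GAAA, any 2 bases and GAAA. In that of PSMB9 (chr7:25071883-25072132, plus strand) the capitals mark 2 overlapping matches of the same core. In that of PSMB3 (chr12:23357617-23357866, minus strand) they mark the box of the factor NF-Y, CCAAT on either strand.
PSMB10: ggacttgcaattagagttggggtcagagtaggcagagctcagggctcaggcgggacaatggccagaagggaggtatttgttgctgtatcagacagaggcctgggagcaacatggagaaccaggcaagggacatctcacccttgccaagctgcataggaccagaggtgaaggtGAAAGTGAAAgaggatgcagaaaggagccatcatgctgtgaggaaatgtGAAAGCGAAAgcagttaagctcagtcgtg
PSMB9: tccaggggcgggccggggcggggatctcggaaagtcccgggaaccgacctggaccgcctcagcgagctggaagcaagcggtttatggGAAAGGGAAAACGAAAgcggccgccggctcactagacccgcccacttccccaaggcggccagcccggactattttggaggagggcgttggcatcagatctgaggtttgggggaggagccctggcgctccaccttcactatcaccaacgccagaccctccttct
PSMB3: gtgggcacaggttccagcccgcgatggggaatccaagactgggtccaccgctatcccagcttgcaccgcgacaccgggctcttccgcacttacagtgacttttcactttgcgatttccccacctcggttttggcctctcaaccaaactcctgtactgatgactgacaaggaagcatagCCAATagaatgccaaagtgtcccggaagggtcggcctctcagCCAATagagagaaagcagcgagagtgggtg

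Over windows of 300 bases, 250 before to 50 from the start site, and counting both strands, the interferon element stood in 4 of 5 genes of the inducible group with PSME1 and PSME2 (80%: PSMB9, PSMB10, PSME1 and PSME2), in 1 of 28 constitutive subunits (3.57%: PSMC4) and in 3.53% of 19240 genes. The NF-Y box stood in 13 of 28 constitutive subunits (46.4%) and 35.4% of all genes. The antioxidant response element TGACNNNGC, through which NFE2L1 and NFE2L2 raise proteasome genes, stood in 3 of 28 (10.7%: PSMB7, PSMC5 and PSMD14) and 12.3% of all genes. A match describes the letters in this window and not a bound site.

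Of the 44 genes, 41 were above 0.5 TPM in at least 80% of the libraries of every group. The exceptions were PSMC3IP (above 0.5 TPM in 210 of 236 libraries), PSMA8 and PSMB11. PSMA8 was above 0.5 TPM in 6 of 236 libraries (highest 1.40 TPM) and PSMB11 in 0 (highest 0.249 TPM), so these 2 entered no test and 42 genes were tested in every comparison. TPM is a level per transcript length, so it allows an order of genes. By median TPM over the 236 libraries, with the lowest and highest library, the core subunits PSMB4 (288, 16.5 to 586), PSMB1 (240.5, 12.3 to 457) and PSMA7 (181, 96.4 to 458) and the cap ATPase PSMC6 (193, 12.1 to 402) were among the most abundant. The ranges of these 4 overlapped. The activators PSME1 (109) and PSME2 (95.4), whose ring opens the core without ubiquitin, stood above PSME4 (60.4), the activator of the nucleus, and PSME3 (23.2). The inhibitor PSMF1 had a median of 26.99 TPM, the chaperone PSMD9 24.03 TPM and PSMC3IP 1.08 TPM.

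The inducible catalytic subunits were less abundant than the constitutive one measured in all 12 groups, by group medians. PSMB7 had group medians of 99.6 TPM (NC GOM) to 174 TPM (WL RAD) and a range over libraries of 5.32 to 223 TPM. PSMB8 had group medians of 21.2 TPM (NC MAD) to 83.1 TPM (WL GOM), PSMB9 of 10.5 TPM (NC RAD) to 35.6 TPM (WL GOM), and PSMB10 of 16.4 TPM (NC ULB) to 36.97 TPM (WG GOM). In the order NC, WG and WL, the median TPM of PSMB8 was 32.8, 54.6 and 83.1 (GOM), 21.2, 38.8 and 82.1 (MAD), 24.02, 44.02 and 50.6 (RAD), and 31.96, 35.5 and 52.6 (ULB). These medians were in the order NC, WG, WL in all 4 ATs, with ranges that overlapped in every AT, but they pool the library sets, between which PSMB8 also differed. In set 1 its medians in NC and WG were 32.8 and 38.03 (GOM), 19.9 and 29.4 (MAD), 21.4 and 30.0 (RAD), and 21.8 and 26.5 (ULB). In set 2 its medians in NC, WG and WL were 38.4, 54.3 and 82.1 (MAD), 36.9, 51.6 and 50.6 (RAD), and 34.9, 46.8 and 52.6 (ULB), with 65.1 in WG and 83.1 in WL for GOM. NC was thus below WG in each set that held both, and WG was below WL in set 2 in every AT but RAD. These are orders of medians, and NC in set 2 rested on 3, 3 and 2 libraries. From NC to WG, PSMB8 was not called in GOM or MAD of set 1, nor in MAD, RAD or ULB of set 2. From WG to WL in set 2 it was called in MAD alone, and not there without the libraries high in T cell markers, described with MAD. The medians over all libraries of PSMB9, the inducible subunit that takes the place of PSMB6, were 14.6, 23.99 and 35.6 (GOM), 12.5, 18.85 and 32.9 (MAD), 10.5, 18.4 and 22.3 (RAD), and 11.4, 17.8 and 20.3 (ULB). In set 2 the order was not kept, with medians in NC, WG and WL of 15.9, 29.9 and 22.3 in RAD and of 13.96, 25.4 and 20.3 in ULB. Those of PSMB10 over all libraries were 21.4, 36.97 and 34.4 (GOM), 23.7, 32.1 and 36.6 (MAD), 20.99, 29.99 and 29.4 (RAD), and 16.4, 28.4 and 33.3 (ULB). PSMB10 was thus lowest in NC in each AT, and its NC median was also below that of WG in each set that held both, at 12.2 to 25.0 TPM in NC and 26.9 to 38.03 TPM in WG. Those of PSMB7 over all libraries were 99.6, 144 and 138 (GOM), 124.5, 130.5 and 144 (MAD), 124, 162.5 and 174 (RAD), and 115, 173 and 168 (ULB). In set 2 PSMB7 was lower in WL than in WG in all 4 ATs by medians, at 138, 144, 174 and 168 TPM against 165, 169, 182 and 197 TPM.

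PSME1 and PSME2, which form 1 ring together, were ordered differently. The median TPM of PSME1 in NC, WG and WL was 165, 109.5 and 116 (GOM), 104, 112 and 121 (MAD), 118, 95.7 and 77.1 (RAD), and 119.7, 111 and 87.3 (ULB). That of PSME2 was 74.9, 106 and 114 (GOM), 60.4, 84.2 and 103 (MAD), 67.8, 95.1 and 104 (RAD), and 68.7, 95.6 and 104.5 (ULB). Over all libraries PSME2 was lowest in NC in all 4 ATs, whereas PSME1 was highest in NC in GOM, RAD and ULB. Neither order held within the sets. In set 2 the medians of PSME2 in NC and WG were 115 and 109 TPM in MAD and 110 and 108 TPM in RAD, and in set 1 those of PSME1 were lower in NC than in WG in all 4 ATs (165, 119, 118 and 128 TPM against 195, 142.5, 142 and 155.5 TPM). PSME1 differed between the library sets: in WG GOM it ran from 128.5 to 261.5 TPM (median 195) in set 1 and from 39.4 to 129.5 TPM (median 87.5) in set 2.

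The 28 constitutive core and cap subunits stood apart by library set. The mean of log2(TPM + 1) over these 28 genes, taken in each library, had group medians of 5.78 to 6.38 in set 1 and of 6.46 to 7.04 in set 2, so every group median of set 1 lay below every group median of set 2. Within WG, where both sets are large, the medians of GOM, MAD, RAD and ULB were 6.10, 6.19, 6.34 and 6.38 in set 1. Those of set 2 were 6.73, 6.75, 6.82 and 6.98. The 4 ATs were in the same order in both sets, with GOM lowest and ULB highest. The lowest library, WG GOM replicate 35, had a mean of 4.33.

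**Figure D1:**
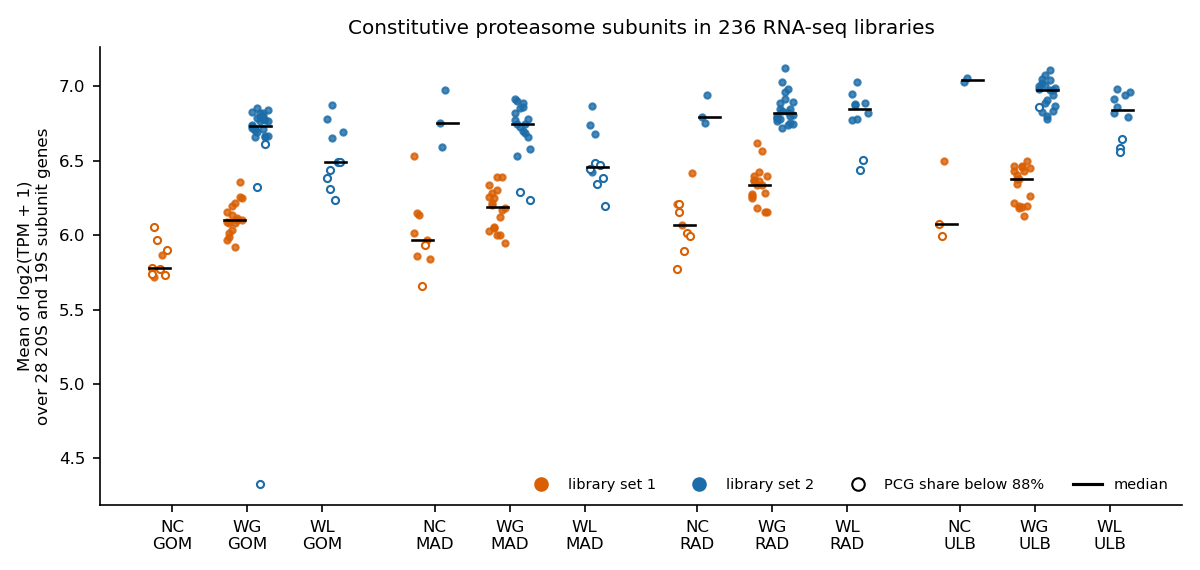
Mean log2(TPM + 1) over 28 constitutive core and cap subunit genes (vertical axis) in each of 236 libraries, by AT and nutritional group, with the library set in colour and a bar at the median of each group and set. The median of set 2 lies above that of set 1 in every group that holds both, open points have a PCG share under 88%, and within WG the medians rise from GOM (6.10 and 6.73) to ULB (6.38 and 6.98) in either set.

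Between ATs, the called genes among all 42 members were more often higher than lower in subcutaneous ULB against visceral GOM in all 3 nutritional groups. In WG, edgeR called 20 of 42 genes higher and 2 lower in ULB at an adjusted p below 0.05, beside 22.7% of PCGs higher and 24.4% lower. In set 1 alone the numbers were 27 and 4 (23.5% and 21.6% of PCGs), and in set 2 alone 26 and 0 (20.5% and 21.4%). In WL, 13 were higher and 0 lower (11% and 11.7% of PCGs), and in NC 22 were higher and 1 lower (15.6% and 12.0% of PCGs). In NC set 1 alone, 9 were higher and 0 lower (8.94% and 7.66%). The F test over the 4 ATs called 20 genes in NC (34.6% of PCGs), 22 in WG (57.1%) and 24 in WL (34.7%), with 17 in NC set 1 (29.8%), 34 in WG set 1 (58.0%) and 24 in WG set 2 (51.8%). Without the libraries under 88% PCG share, the numbers higher and lower in ULB than in GOM were 21 and 3 in WG (25.3% and 23.9% of PCGs), 1 and 0 in WL (5.55% and 7.32%) and 6 and 1 in NC (5.03% and 5.51%), with 2 NC GOM libraries kept. The F test then called 4 genes in NC (9.03% of PCGs) and 1 in WL (12.9%), and without the libraries high in T cell markers, described with MAD, that of WL came to 13 (27.3%). The part of the PCG share in these differences was not tested.

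PSMB3, a core subunit without a catalytic site, was the member with the largest called difference between GOM and ULB in WG. In set 1 it had 45.4 to 117 TPM in GOM (median 70.0) and 57.3 to 148 TPM in ULB (median 108), with MAD (79.2) and RAD (90.5) between. In set 2 it had 17.7 to 197 TPM in GOM (median 152) and 144 to 268.5 TPM in ULB (median 207), with MAD at 151 and RAD at 158. ULB was highest in both sets and the ranges overlapped. The log2 difference was 0.59 ± 0.14 (SE; adjusted p = 0.000122) over all libraries, 0.68 ± 0.11 in set 1 (adjusted p = 2.67e-07) and 0.66 ± 0.11 in set 2 (adjusted p = 2.6e-07). In WL its median TPM was 146 in GOM (119.7 to 175), 147 in MAD (134.5 to 200.5), 172 in RAD (152 to 222) and 187 in ULB (147 to 217.5), with a log2 difference of 0.33 ± 0.10 between GOM and ULB (adjusted p = 0.0108). In NC it had 34.97 to 66.7 TPM in GOM, and 170, 99.4, 224, 51.8 and 134.6 TPM in the ULB replicates 2, 5, 7, 9 and 12, of which replicate 9 alone fell within the range of GOM. Its log2 difference in NC was 1.3 ± 0.30 (adjusted p = 0.00164) over all libraries and 0.74 ± 0.26 (adjusted p = 0.0471) in set 1.

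Of the 6 ATPases, 5 were called higher in ULB than in GOM in WG (6 in set 1 and 5 in set 2), 4 in WL and 5 in NC (3 in set 1), and 0 lower. With the libraries under 88% PCG share left out the numbers higher were 5 in WG, 2 in NC and 0 in WL, where edgeR gave 1 an unadjusted p below 0.05. PSMC1, an ATPase that helps open the core's gate, had 59.3 to 82.1 TPM in WG GOM of set 1 and 78.2 to 113 TPM in ULB, so these ranges barely overlapped, and its log2 difference was 0.57 ± 0.06 (adjusted p = 1.73e-12). In set 2 its range was 13.6 to 118 TPM in GOM (median 97.1) and 38.9 to 159.9 TPM in ULB (median 124), with a log2 difference of 0.48 ± 0.12 (adjusted p = 0.000718). In WL the ATPases PSMC2 (0.44 ± 0.12), PSMC4 (0.41 ± 0.10) and PSMC1 (0.39 ± 0.11) and the scaffold subunit PSMD1 (0.44 ± 0.12) were called higher in ULB than in GOM, at adjusted p of 0.0019 to 0.00688. PSMB4 was called higher in ULB in all 3 groups, by 0.48 ± 0.18 in WG, 0.29 ± 0.11 in WL and 1.58 ± 0.39 in NC, and by 0.81 ± 0.22 in NC set 1. PSME4 was called higher in ULB in WG, by 0.31 over all libraries, 0.40 in set 1 and 0.28 in set 2, while PSME1, PSME2 and PSME3 were not called.

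The inducible subunits did not share this order. PSMB8 was lower in ULB than in GOM in WG, by a log2 difference of -0.40 ± 0.14 over all libraries (adjusted p = 0.0126) and -0.35 ± 0.14 in set 1 (adjusted p = 0.0277), with -0.33 ± 0.15 in set 2 (adjusted p = 0.077). PSMB10 was called lower over all libraries (-0.22 ± 0.08) and in set 1 (-0.35 ± 0.09), with -0.11 ± 0.12 in set 2 (adjusted p = 0.505). PSMB9 was called lower in set 1 alone (-0.29 ± 0.10, adjusted p = 0.0166), with -0.34 ± 0.16 over all libraries (adjusted p = 0.0714) and -0.27 ± 0.20 in set 2 (adjusted p = 0.298). In WL the differences of PSMB8 (-0.60, adjusted p = 0.117) and PSMB9 (-0.67, adjusted p = 0.0784) were not called. Whether a gene's difference between GOM and ULB itself differed between the sets was not tested.

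**Figure D2:**
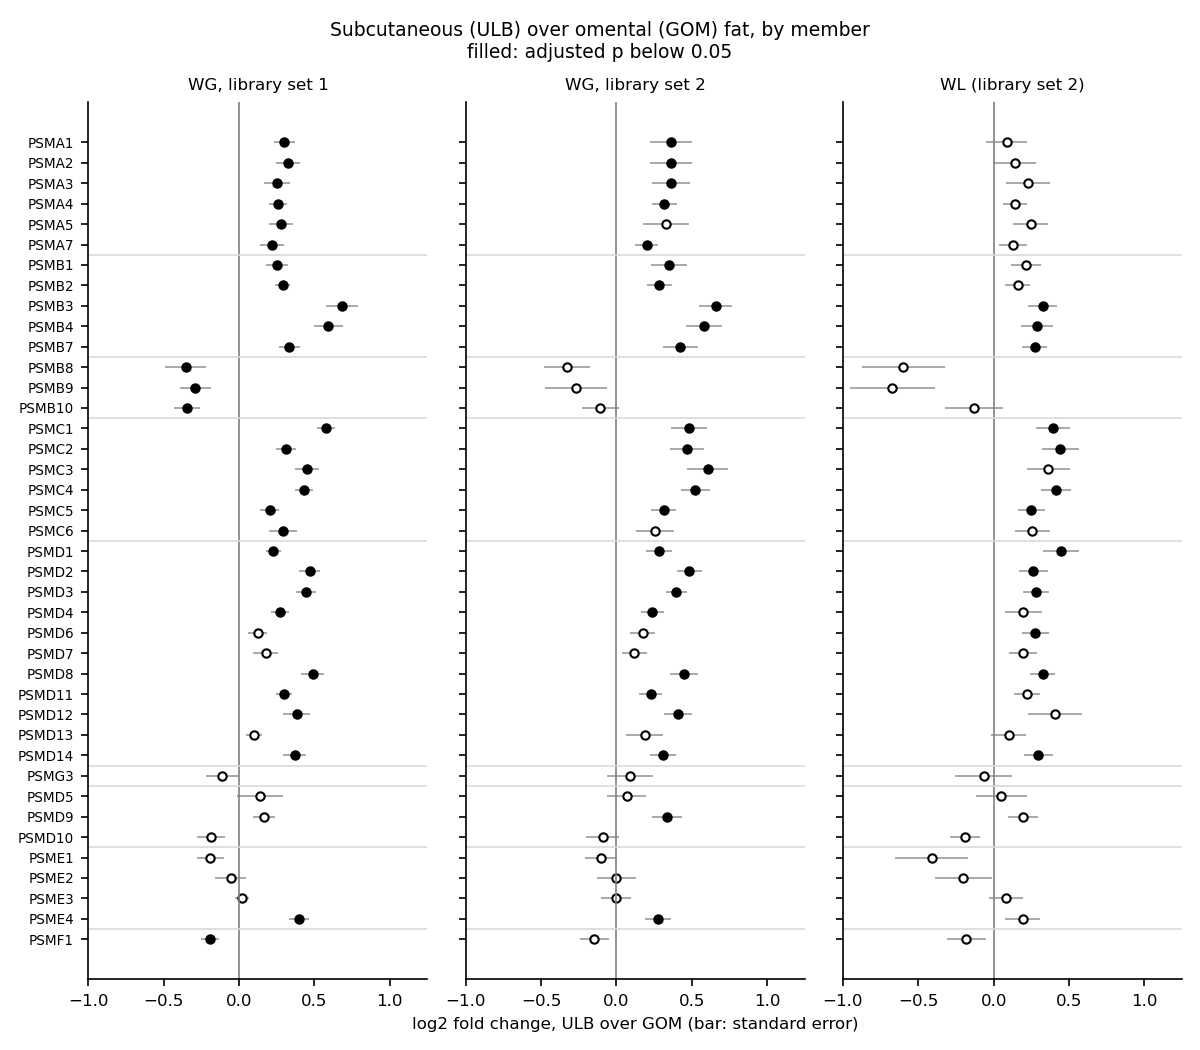
log2 fold change of ULB over GOM (points, with bars of 1 SE) for 40 proteasome genes ordered by role, in WG of library set 1, WG of library set 2 and WL, filled where the adjusted p was below 0.05. Most core and cap subunits lie above 0 in each of the 3 panels, with PSMB3 at 0.68, 0.66 and 0.33. The inducible PSMB8, PSMB9 and PSMB10 lie below 0.

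Between the other ATs, which pairs held the most called genes differed by nutritional group. In WG, 18 genes were higher and 1 lower from MAD to ULB (20.1% and 20.8% of PCGs), with 14 and 2 in set 1 (19.1% and 19.8%) and 21 and 1 in set 2 (16.6% and 19.9%). From GOM to RAD, 12 were higher and 0 lower in WG (15.6% and 16.5%), with 28 and 3 in set 1 (18% and 15.6%) and 10 and 0 in set 2 (13.9% and 14.5%). From RAD to ULB, 3 were higher and 0 lower (15.6% and 15.4%), with 4 and 2 in set 1 (17.1% and 16.6%) and 3 and 0 in set 2 (11.8% and 11.2%). From MAD to RAD, 4 were higher and 1 lower (6.45% and 8.14%), with 8 and 0 in set 1 (4.91% and 6.44%) and 2 and 0 in set 2 (4.15% and 7.08%). From GOM to MAD, 1 was higher and 0 lower (7.51% and 8.63%), with 7 and 0 in set 1 (5.54% and 5.88%), and edgeR called 0 in set 2 (6.64% and 5.97%), with 2 at an unadjusted p below 0.05.

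In WL the numbers were 12 higher and 0 lower from GOM to RAD (8.19% and 9.11% of PCGs), 11 and 3 from MAD to RAD (6.08% and 9.65%), 9 and 4 from MAD to ULB (1599 and 1988 of 14350 PCGs), 1 and 0 from GOM to MAD (5.05% and 5.37%), and 0 and 1 from RAD to ULB (2.3% and 2.12%). Without the libraries under 88% PCG share, 1 was higher from GOM to RAD (1.76% of PCGs) and edgeR called 0 in the other pairs of WL but GOM to ULB, with 1 to 6 genes at an unadjusted p below 0.05. In NC, 20 were higher and 1 lower from GOM to RAD (14.3% and 10.6%), with 17 and 0 in set 1 (11.2% and 9.71%), and 10 and 2 from GOM to MAD (11% and 9.54%), with 7 and 2 in set 1 (10.2% and 9.64%). From MAD to ULB, 3 were higher and 0 lower in NC (6.24% and 5.3%), with 1 and 0 in set 1 (3.86% and 3.69%). From MAD to RAD and from RAD to ULB edgeR called 0 in NC, with 2 and 5 at an unadjusted p below 0.05, and without the libraries under 88% PCG share it also called 0 from GOM to MAD and from GOM to RAD, with 8 and 21 at an unadjusted p below 0.05. These pairs share libraries, and their counts are not separate evidence.

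Weight gain was compared with the normal diet in each AT. Over all libraries, core subunits were higher in WG in GOM, where 15 of 42 genes were called higher and 3 lower, beside 18.7% of PCGs higher and 19.9% lower. The higher genes included 4 of 6 alpha and 4 of 5 constitutive beta subunits but 1 of 6 ATPases, and the median log2 difference of the 42 genes was 0.28, beside 0.00 for all PCGs tested. PSMB4 (1.2 ± 0.33, adjusted p = 0.00401), PSMB1 (1.07 ± 0.28, adjusted p = 0.00247) and PSMA1 (1.00 ± 0.33, adjusted p = 0.0146) had the largest differences. PSMC3IP (-1.81 ± 0.27, adjusted p = 4.21e-07), PSME1 (-0.65 ± 0.18, adjusted p = 0.00391) and PSMD11, a cap subunit (-0.32 ± 0.13, adjusted p = 0.0479), were lower.

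In GOM the levels also differed by library set. PSMB4 had 56.6 to 109 TPM in NC GOM (median 87.8, all set 1), 80.2 to 159.7 TPM in WG GOM of set 1 (median 116), and 16.5 to 423 TPM in set 2 (median 325). PSMA1 had a median of 40.25 TPM in NC, 45.9 TPM in WG set 1 and 127 TPM in WG set 2. In both genes WG set 1 stood much nearer to NC than to WG set 2. Within set 1, 2 of 42 genes were called higher and 8 lower (12.3% and 14.4% of PCGs), with a median log2 difference of -0.11. The 2 higher were PSMB10 (0.38 ± 0.13, adjusted p = 0.037) and the cap subunit PSMD3 (0.24 ± 0.08, adjusted p = 0.03), and the lower ones included PSMC3IP (-1.95 ± 0.37), PSMA3 (-0.75 ± 0.11) and PSMC6 (-0.54 ± 0.10). Of the 18 genes called over all libraries, 2 were also called in set 1. With the libraries under 88% PCG share left out, which leaves 2 NC GOM libraries, edgeR called 0 genes (1.08% of PCGs higher and 1.85% lower), with 12 at an unadjusted p below 0.05.

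In the other ATs few members were called. MAD had 0 higher and 1 lower (9.14% and 9.45% of PCGs), the cap subunit PSMD7 (-0.32 ± 0.10, adjusted p = 0.0182). RAD had 6 higher and 4 lower (16.7% and 17.6% of PCGs), led by PSMD14, which cuts ubiquitin chains off the substrate (0.50 ± 0.15), PSMB3 (0.44) and PSMD10 (0.36), and by PSMC3IP (-1.51 ± 0.30), PSMD5 (-0.48) and PSME1 (-0.44). ULB had 1 higher and 0 lower (0.618% and 2.24% of PCGs). That gene was PSMB10, with 9.09, 16.4, 15.2, 20.2 and 18.3 TPM in the NC replicates 2, 5, 7, 9 and 12, 18.15 to 44.4 TPM in WG (median 28.4), and a log2 difference of 0.74 ± 0.17 (adjusted p = 0.01). Only NC replicates 9 and 12 lay within the WG range. Without NC replicate 2 the difference was 0.59 (adjusted p = 0.0733), and in set 1, with 3 NC libraries, it was 0.39 ± 0.17 (adjusted p = 0.14), so PSMB10 was not called in either. In set 2, with 2 NC libraries, it was 1.27 ± 0.29 (adjusted p = 0.0401).

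Within set 1, where most NC libraries lie, the called genes among all 42 members were more often lower than higher in WG. GOM had 2 higher and 8 lower, MAD 0 and 6 (7.54% and 7.12% of PCGs), RAD 2 and 12 (15.3% and 18.6%), and ULB 2 and 6 (2.74% and 5.87%). PSMA3, an alpha subunit, was lower in each AT (-0.75, -0.37, -0.46 and -0.64 in the order above, all called), and so was the ATPase PSMC3 (-0.33, -0.44, -0.36 and -0.47, all called). Without the libraries under 88% PCG share, 0, 0 and 0 were higher (0.054%, 5.86% and 0.757% of PCGs) and 0, 2 and 1 lower (0.277%, 4.26% and 1.86%) in GOM, MAD and RAD. PSMA3 was then called in none of these 3 ATs (-0.39, -0.30 and -0.20), and PSMC3 was called in MAD alone (-0.42), with 0.13 in GOM, the opposite direction, and -0.057 in RAD. In set 2, with 3, 3 and 2 NC libraries, 0 genes were called in either direction in MAD (0.16% of PCGs higher and 0.667% lower, 2 genes at an unadjusted p below 0.05), 0 higher and 1 lower in RAD (2.95% and 3.2%), and 1 higher and 0 lower in ULB (0.0223% and 0.536%). PSMC3IP, which takes no part in the proteasome, had a difference between NC and WG that differed across ATs (interaction adjusted p = 0.00553), the 1 gene of 42 called beside 6.57% of PCGs, and the 1 called in set 1 beside 4.95%. Its median was 1.08 TPM, and its interaction was not called without the libraries under 88% PCG share.

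Weight loss was compared with weight gain, for which all WL libraries lie in set 2. Over all libraries few members were called: GOM had 0 higher and 0 lower (4.2% and 4.3% of PCGs), MAD 3 and 5 (15.6% and 15.7%), RAD 1 and 0 (6.78% and 6.31%), and ULB 0 and 2 (8.52% and 8.7%). For GOM, 5 genes had an unadjusted p below 0.05 in edgeR and 1 was called by DESeq2. The called gene of RAD was PSMB2 (0.24 ± 0.07), a core subunit, which was also higher in MAD (0.31 ± 0.09). Those of ULB were the cap subunit PSMD12 (-0.39 ± 0.09) and PSME4 (-0.33 ± 0.07). In MAD, PSMB8 (1.33 ± 0.24) and PSMB9 (1.03 ± 0.26) were higher, and PSMD12 (-0.67 ± 0.12), PSMD11 (-0.43) and PSMD1 (-0.42) led the 5 lower.

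Against the WG libraries of the same set, most core and cap subunits were lower in WL in ULB. Set 2 holds the WG ULB libraries with the higher subunit means (median 6.98, against 6.38 in set 1) and all WL ULB libraries (6.84). The sets were cut on expression, so choosing set 2 leaves out the WG libraries lower in these genes. The part of this choice in the difference was not tested. In set 2 (20 WG and 10 WL libraries), 26 of 42 genes were called lower and 2 higher, beside 18.2% of PCGs lower and 16.7% higher. The lower genes were 6 of 6 alpha, 4 of 5 constitutive beta, 4 of 6 ATPase and 6 of 11 non-ATPase subunits, with 0 of the 3 inducible subunits in either direction. The median log2 difference of the 42 genes was -0.39, with 37 of 42 below 0, beside 0.02 for all PCGs tested. With the libraries under 88% PCG share left out, 22 were lower and 1 higher (15.6% and 12.0% of PCGs), with a median of -0.32. A fit to all libraries with a term for the library set gave 26 lower and 2 higher, and its shares of PCGs are not given here. It again sets WL against WG of set 2, so it is not separate evidence.

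The alpha ring and the deubiquitinase show the size of this difference. PSMA2 had 85.6 to 165 TPM in the WG ULB libraries of set 2 (median 121.5) and 76.5 to 126 TPM in WL (median 85.8), a log2 difference of -0.64 ± 0.13 (adjusted p = 0.000298). PSMA3 had 196 to 374.6 TPM (median 251.5) and 146.5 to 249.8 TPM (median 187), a log2 difference of -0.64 ± 0.13 (adjusted p = 0.000244). PSMD14 had 105.6 to 159 TPM (median 123.5) and 70.4 to 124 TPM (median 94.0), a log2 difference of -0.60 ± 0.10 (adjusted p = 3.81e-05). The WL median was below the lowest WG library for PSMA3 and PSMD14 and close to it for PSMA2, and the ranges of all 3 genes overlapped. The core chaperone PSMG3 had medians of 56.7 and 39.96 TPM (-0.62 ± 0.18), PSMA1 a difference of -0.58 ± 0.11 and the ATPase PSMC3 medians of 187.5 and 153 TPM (-0.52 ± 0.13).

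The inhibitor PSMF1 was higher in WL within set 2 in all 4 ATs, although it was called in none of them over all libraries (0.29, 0.30, 0.18 and 0.28 in GOM, MAD, RAD and ULB). In ULB of set 2 it had 10.4 to 27.15 TPM in WG (median 16.1) and 19.8 to 39.6 TPM in WL (median 29.4), a log2 difference of 0.61 ± 0.12 (adjusted p = 0.000168). In GOM the medians were 19.02 and 32.9 TPM (0.63 ± 0.12), in MAD 21.8 and 36.1 TPM (0.66 ± 0.10) and in RAD 18.55 and 29.2 TPM (0.52 ± 0.12), all called at adjusted p of 8.1e-05 to 0.00289. Within set 2 and without the libraries under 88% PCG share it was 0.40 in GOM (adjusted p = 0.164), where the call was lost, and 0.51, 0.46 and 0.48 in MAD, RAD and ULB, all called. Each WL median was above the WG median, with overlapping ranges. PSME3, the activator of the nucleus that works without ATP, was the other gene called higher in ULB, with medians of 17.65 and 21.5 TPM (0.35 ± 0.12, adjusted p = 0.0184).

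**Figure D3:**
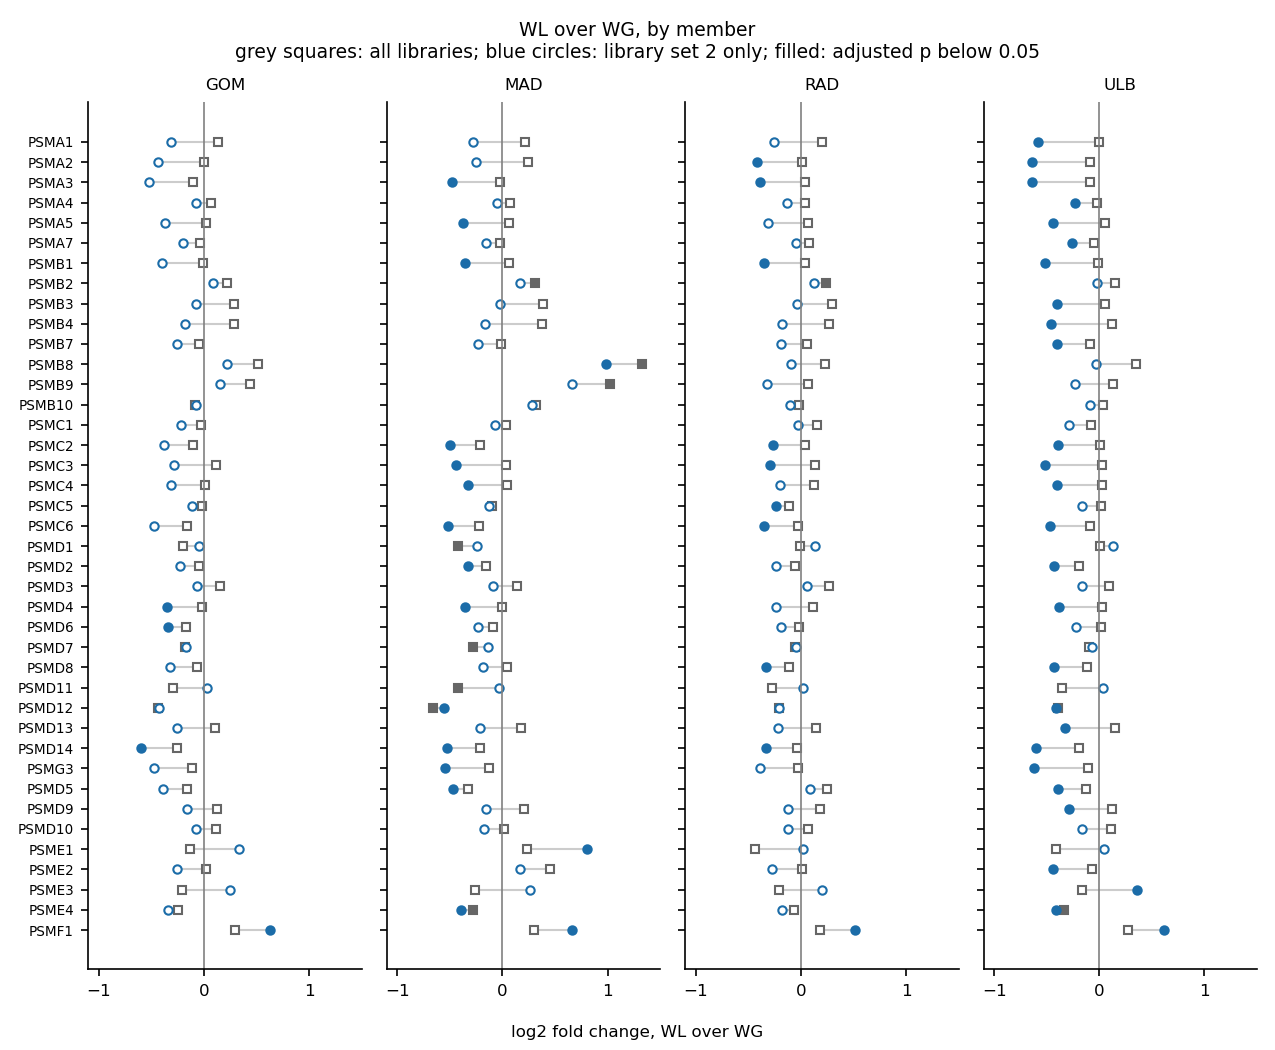
log2 fold change of WL over WG for 40 proteasome genes in each AT, over all libraries (grey squares) and within library set 2 (blue circles), filled where the adjusted p was below 0.05. Within set 2 most ULB points lie below 0, with PSMA2 at -0.64 and PSMD14 at -0.60, and PSMF1 lies above 0 in all 4 ATs (0.52 to 0.66).

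The visceral ATs showed fewer called genes in the same comparison. Within set 2, GOM had 1 higher and 4 lower (8.06% and 7.13% of PCGs, median log2 difference -0.24), MAD 3 and 14 (13.5% and 11.6%, median -0.18) and RAD 1 and 9 (7.25% and 9.26%, median -0.18). PSMD14 (-0.60 ± 0.12) was among those lower in GOM, and PSMA2 (-0.42), PSMA3 (-0.39) and PSMB1 (-0.35) were among those lower in RAD. With the libraries under 88% PCG share left out, 0, 1 and 1 were higher (2.06%, 0.944% and 5.82% of PCGs) and 1, 1 and 5 lower (2.01%, 1.36% and 9.23%). The interaction test in set 2, of whether the difference varied between ATs, called 1 of 42 genes (4.46% of PCGs), as it did over all libraries (6.85%), so the larger number in ULB is a count and not a called difference between ATs.

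Weight loss was also compared with the normal diet, with the same WL libraries. GOM had 21 higher and 7 lower (25.2% and 27.5% of PCGs), MAD 11 and 7 (22.2% and 23.8%), RAD 11 and 6 (18.8% and 22.5%) and ULB 1 and 3 (6.95% and 11.2%). In GOM, where diet and library set cannot be told apart, PSMB4 (1.49 ± 0.14), PSMB3 (1.16 ± 0.13) and PSMA1 (1.14 ± 0.15) were higher, and PSMC3IP (-2.43 ± 0.46), PSME1 (-0.76 ± 0.19) and PSMD12 (-0.62 ± 0.16) lower. In RAD, PSMB3 (0.74), PSMB8 (0.68 ± 0.22) and PSMB4 (0.64) were higher, and PSMC3IP (-1.54), PSME1 (-0.87 ± 0.18) and PSMD11 (-0.55) lower. In ULB, PSMB10 was higher (0.77 ± 0.20, adjusted p = 0.0146), and PSMD12 (-0.70), PSMD11 (-0.61) and PSMD7 (-0.38) lower.

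Within set 2 more genes were lower than higher in MAD and RAD, the opposite of all libraries, and in ULB as before. MAD had 1 higher and 7 lower (2.93% and 7.04% of PCGs), RAD 0 and 7 (5.3% and 8.52%) and ULB 1 and 11 (3.83% and 7.95%), with median log2 differences over the 42 genes of -0.31, -0.22 and -0.42. These fits rest on 3, 3 and 2 NC libraries. Without the libraries under 88% PCG share, 0, 6 and 8 were lower (2.35%, 11% and 8.37% of PCGs) and 0, 0 and 1 higher (0.839%, 5.67% and 3.99%), with 10 genes in MAD at an unadjusted p below 0.05. The genes called over all libraries and in set 2 alone were mostly different ones, with 2, 0 and 2 in common. Over all libraries, the interaction of NC against WL with AT called 4 of 42 genes (9.52% of PCGs).

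In MAD after weight loss the inducible subunits were high in 3 of 10 libraries. PSMB8 had 146, 34.9, 59.7, 82.0, 97.9, 228, 188, 68.4, 56.4 and 82.15 TPM in WL MAD replicates 1 to 10, and 12.1 to 107 TPM in WG MAD (median 38.8). PSMB9 had 57.55, 14.6, 34.2, 21.9, 37.05, 105, 80.45, 27.5, 31.6 and 22.4 TPM in the same libraries. Replicates 1, 6 and 7 were highest for both genes. PSMB7 stayed between 119 and 174 TPM over the 10 libraries.

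The same 3 libraries were high in T cell markers. The summed level of CD3D, CD3E, CD2, CD5 and CD8A was 297.5, 658 and 612.9 TPM in replicates 1, 6 and 7, and 30.9 to 71.9 TPM in the other 7 WL MAD libraries, against a median of 30.6 TPM in WG MAD (12.6 to 242) and 18.3 TPM in NC MAD (8.75 to 35.8). All 5 markers were called higher in WL than in WG and than in NC. B cell markers were high in these libraries too, at 182.6, 541 and 304 TPM. WG MAD replicates 1 and 31 were the only other libraries of the 236 above 100 TPM for the T cell markers.

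Without these 5 libraries, the difference of PSMB8 between WG and WL in MAD was 0.77 ± 0.23 (adjusted p = 0.0332) in place of 1.33, and that of PSMB9 was 0.32 ± 0.27 (adjusted p = 0.459) in place of 1.03, with 1 member higher and 1 lower (4.23% and 4.59% of PCGs). Within set 2 the values were 0.99 ± 0.27 (adjusted p = 0.00974) for PSMB8 with these libraries and 0.42 ± 0.24 (adjusted p = 0.277) without them. In set 2 without the libraries under 88% PCG share, the difference was -0.0054 ± 0.33 for PSMB8 (adjusted p = 0.996) and -0.42 ± 0.38 for PSMB9 (adjusted p = 0.605), so neither was called and both changed direction. The part of T cells in the levels of PSMB8 and PSMB9 was otherwise not tested. Against NC, PSMB8 (1.88 ± 0.31, adjusted p = 7.6e-05), PSMB9 (1.41 ± 0.32, adjusted p = 0.00122), PSMB3 (0.71), PSME2 (0.71 ± 0.23) and PSMB10 (0.70 ± 0.21) were higher in WL MAD, and PSMD12 (-0.73), PSMD5 (-0.70) and PSMD11 (-0.69) lower. Without the libraries high in T cell markers, PSMB8 (1.19 ± 0.24, adjusted p = 0.00149) and PSMB9 (0.63 ± 0.23, adjusted p = 0.0452) were still called, while PSMB10 had 0.28 ± 0.18 (adjusted p = 0.224) and PSME2 0.27 ± 0.20 (adjusted p = 0.296).

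**Figure D4:**
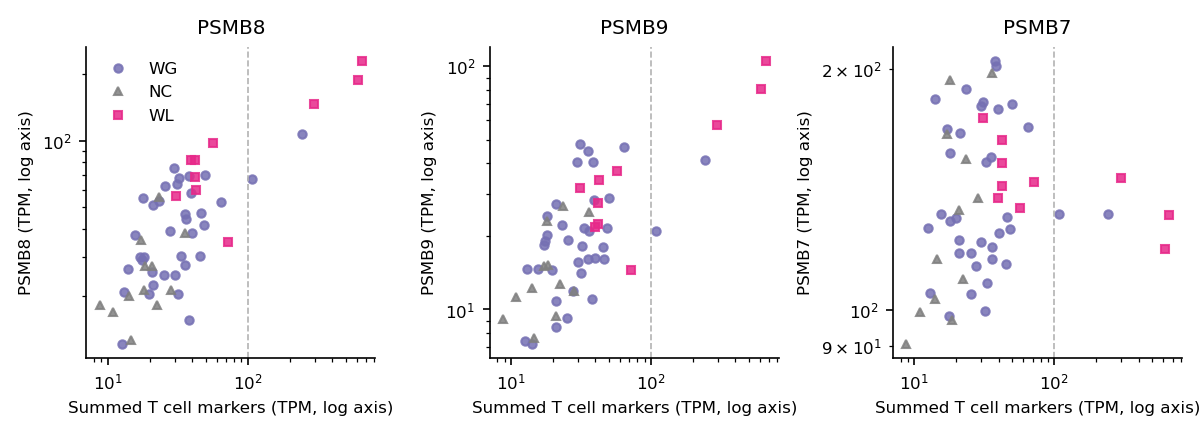
TPM of PSMB8, PSMB9 and PSMB7 (vertical log axes) against the summed TPM of 5 T cell markers (horizontal log axis) in each MAD library, with nutritional group by colour and shape and a dashed line at 100 TPM. WL replicates 1, 6 and 7 (297.5, 658 and 612.9 TPM of markers) hold the 3 highest PSMB8 values (146, 228 and 188 TPM), while PSMB7 in WL MAD stays between 119 and 174 TPM.

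PSMB8 and PSMB9 varied together among WG libraries of 1 AT and 1 library set, in 8 relations of log2(TPM + 1) that were examined alongside 8 of PSMB8 with PSMB7. In set 2, Pearson's r of PSMB8 with PSMB9 was 0.734 in MAD (n = 18, permutation adjusted p = 0.00188, Spearman's rho 0.606), 0.823 in RAD (n = 22, permutation adjusted p = 8e-05, rho 0.811), 0.856 in GOM (n = 27, permutation adjusted p = 0.00128, rho 0.475) and 0.510 in ULB (n = 20, permutation adjusted p = 0.0393, rho 0.284). In set 1 it was 0.689, 0.649, 0.8605 and 0.697 in GOM, MAD, RAD and ULB (n = 17 or 18, permutation adjusted p of 8e-05 to 0.00658, rho 0.5005 to 0.868). Without the 2 libraries farthest from the median of PSMB8, r was 0.450 to 0.8185 in set 1, and 0.274, 0.672, 0.708 and 0.305 in GOM, MAD, RAD and ULB of set 2. In GOM and ULB of set 2 the relation therefore rested on those libraries. For Spearman's rho in ULB the permutation adjusted p was 0.0849 in set 1 and 0.357 in set 2. PSMB8 and PSMB9 are neighbours on chromosome 7.

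PSMB8 and the constitutive PSMB7 were related over the WG libraries of both sets together, with r of 0.668, 0.416, 0.561 and 0.669 in GOM, MAD, RAD and ULB (n = 36 to 45, permutation adjusted p of 1.6e-05 to 0.01225, rho 0.488 to 0.648), beside 0.794, 0.774, 0.861 and 0.719 for PSMB8 with PSMB9. Within the sets a relation of PSMB8 with PSMB7 was found in 1 case of 8. Their r was -0.229, 0.248, 0.0737 and 0.0044 in GOM, MAD, RAD and ULB of set 1, and 0.0184, 0.230 and 0.248 in MAD, RAD and ULB of set 2, with permutation adjusted p of at least 0.429. In GOM of set 2 it was 0.804 (permutation adjusted p = 0.0327) and 0.0634 without the 2 libraries farthest from the median, so it rested on them. Replicate 35, the library with the lowest subunit mean, belongs to this group.

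**Figure D5:**
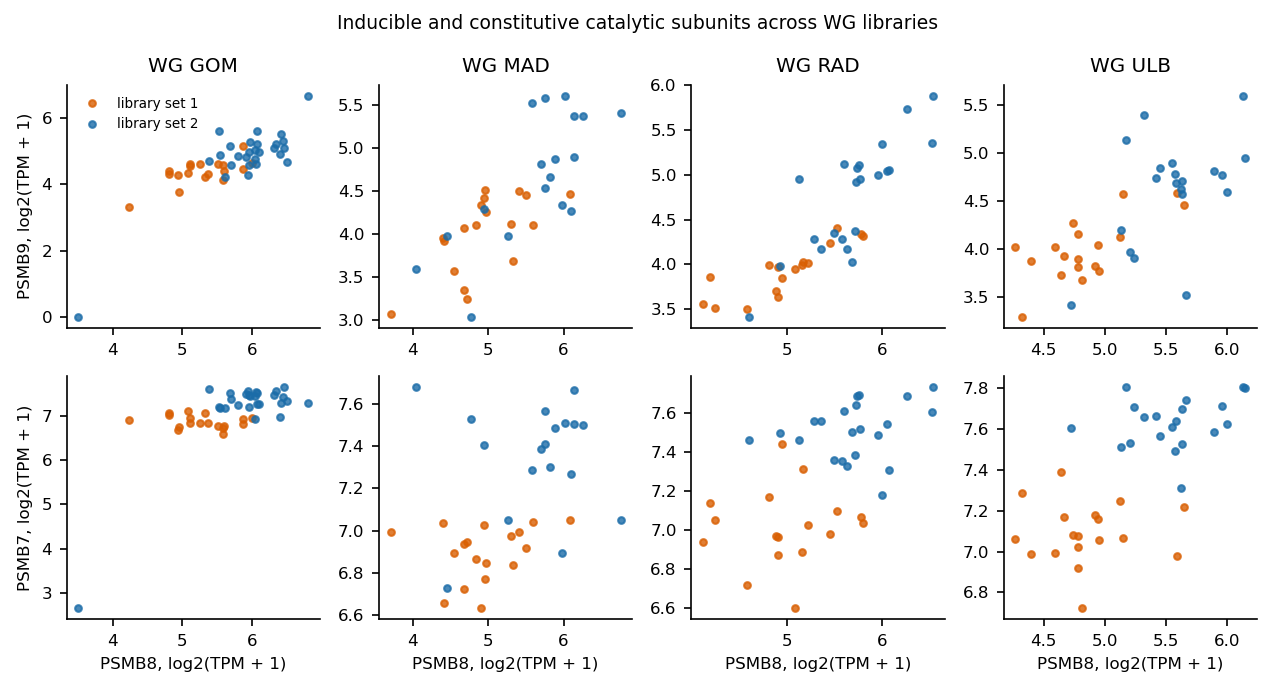
log2(TPM + 1) of PSMB8 against PSMB9 and against PSMB7 in the WG libraries of each AT, coloured by library set. Within a set PSMB8 and PSMB9 rise together (r of 0.510 to 0.8605), but without 2 libraries r was 0.274 in GOM and 0.305 in ULB of set 2. PSMB8 and PSMB7 do not rise together, apart from GOM of set 2. There r was 0.804 with all libraries and 0.0634 without 2 of them.

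The 28 core and cap subunits varied together more than pairs of PCGs in general. With group means removed, the median r over their pairs was 0.642 in 236 libraries, and 0.416 with library set means removed as well, beside 0.0163 and 0.0151 over pairs of all PCGs. These are descriptions over libraries that share depth and library set. PSMB1 (r = 0.975, and 0.931 with set means removed), PSMA2 (0.968 and 0.917) and PSMA1 (0.967 and 0.912) followed the mean of the 28 most closely. PSME3 (-0.753 and -0.243), PSMD11 (-0.705 and -0.159) and PSMF1 (-0.70 and -0.259) ran opposite to it. PSME1 changed sign with the set means (-0.514 and 0.148). Of the other PCGs, SAR1A (0.955), POLR2E (0.953) and TSPAN31 (0.95) were most like the mean. With set means removed they were EMC3 (0.901), POMP (0.889), which is itself an assembly chaperone of the core, and PRORP (0.885).

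Partner genes outside the naming rule, such as shuttles and deubiquitinases that deliver or release ubiquitin, were called lower more often than higher in WL against NC over all libraries, outside ULB. Of 19 partners 18 were tested. From NC to WL, 3 were higher and 8 lower in GOM (25.2% and 27.5% of PCGs), 1 and 9 in MAD (22.2% and 23.8%), 0 and 8 in RAD (18.8% and 22.5%) and 0 and 0 in ULB (6.95% and 11.2%), where edgeR gave 4 an unadjusted p below 0.05. The lower ones included UBQLN2, a shuttle (-0.97, -0.79 and -0.92 in GOM, MAD and RAD), and USP14, a deubiquitinase of the cap (-0.84, -0.87 and -0.59). ADRM1, a ubiquitin receptor of the cap (0.73), and POMP (0.47) were higher in GOM. Within set 2, with its few NC libraries, 0 partners were higher and 1 lower in MAD (2.93% and 7.04% of PCGs) and in RAD (5.3% and 8.52%), and 1 and 2 in ULB (3.83% and 7.95%). From NC to WG, 1 was higher and 5 lower in GOM (18.7% and 19.9% of PCGs), 0 and 1 in MAD (9.14% and 9.45%) and 1 and 3 in RAD (16.7% and 17.6%). In ULB 0 and 0 were called (0.618% and 2.24%), with 1 at an unadjusted p below 0.05 in edgeR. In set 1 the numbers were 0 and 1 in GOM (12.3% and 14.4%), 1 and 2 in MAD (7.54% and 7.12%), 0 and 4 in RAD (15.3% and 18.6%) and 0 and 1 in ULB (2.74% and 5.87%). From WG to WL, 0 and 0 were called in GOM (4.2% and 4.3% of PCGs), with 5 at an unadjusted p below 0.05 in edgeR. The other ATs had 0 and 4 in MAD (15.6% and 15.7%), 1 and 2 in RAD (6.78% and 6.31%) and 1 and 0 in ULB (8.52% and 8.7%). In set 2 the numbers were 2 and 2 in GOM (8.06% and 7.13%), 1 and 4 in MAD (13.5% and 11.6%), 1 and 1 in RAD (7.25% and 9.26%) and 4 and 2 in ULB (16.7% and 18.2%).

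Of the transcription factors of the proteasome, NFE2L1, the factor that raises subunit genes when proteasomes are short, was lower in WL than in WG in GOM (-0.50 ± 0.12), MAD (-0.72 ± 0.13) and RAD (-0.39 ± 0.10), with -0.54, -0.76 and -0.46 in set 2, all called. It was higher in WG than in NC in GOM (0.51 ± 0.14) and RAD (0.50 ± 0.10), with 0.44 and 0.44 in set 1, both called. NFE2L2 was lower in WL than in NC in all 4 ATs (-0.65, -0.36, -0.66 and -0.57), and was not called within set 2. Among genes that pass peptides to MHC class I, IRF1, an interferon-responsive transcription factor (0.89 ± 0.23), and TAP2 (0.59 ± 0.13) and TAP1 (0.50 ± 0.16), the transporter that carries proteasome peptides, were called higher in WG than in NC in RAD. In set 1 their differences were 0.59 and 0.43 for IRF1 and TAP2, both called, and 0.26 for TAP1 (adjusted p = 0.187). TAP1 (1.04 ± 0.22) and IRF1 (0.96 ± 0.24) were called higher in WL than in WG in MAD, with 0.71 (called) and 0.66 (adjusted p = 0.0771) in set 2. Without the libraries high in T cell markers neither was called, at 0.41 ± 0.22 (adjusted p = 0.232) for TAP1 and 0.19 ± 0.23 (adjusted p = 0.626) for IRF1 over all libraries, and 0.055 and -0.12 in set 2. CANX, a chaperone of the endoplasmic reticulum, was called lower in both comparisons (-0.31 and -0.36), and not in MAD without the libraries high in T cell markers (-0.23, adjusted p = 0.249).

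The Hi-C data of the same ATs placed the proteasome genes in active chromatin. The A-B index, whose positive values mark compartment A in bins of 20 kb, was available for 42 autosomal members in 41 bins, PSMB8 and PSMB9 sharing 1. It was positive in all 240 Hi-C samples for 39 of 42 members (92.9%), beside 63.2% of PCGs. The exceptions were PSMD11 (positive in 239), PSMD7 (191) and the silent PSMA8 (143). The silent PSMB11 was positive in all 240. The median index was 4.28 for the members and 2.79 for PCGs, and PSMB10 had the highest median (7.10). The index was higher in WG than in NC for 31, 37, 37 and 29 of 42 members in GOM, MAD, RAD and ULB. That of PCGs was higher in 72.5%, 76.0%, 76.75% and 68.05%. The median difference from NC to WG was 0.16, 0.40, 0.40 and 0.17 for the members, beside 0.18, 0.25, 0.26 and 0.20 for PCGs. From NC to WL the median difference was 0.28, 0.37, 0.44 and 0.06, beside 0.27, 0.31, 0.36 and 0.23. From WG to WL the median difference was 0.14, 0.08, 0.10 and 0.01, beside 0.13, 0.10, 0.13 and 0.08. These differences were not tested.

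In the H3K27ac tables, which the authors made from pooled replicates, 30 to 42 of 42 members had an enhancer region within 10 kb, beside 65.3% to 85.6% of PCGs over 18 tables. The tables hold no replicates, so no test of these shares between groups was made.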

How the data were processed

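Total RNA-seq of adipose tissue was compared between 3 nutritional groups and 4 ATs, and Hi-C and H3K27ac ChIP-seq of the same tissues were used for position only. The authors estimated transcript abundance with kallisto 0.43.0, summed it to genes of Sscrofa11.1, and deposited expected counts and TPM. Expected counts were rounded. Each of the deposited tables of counts and of the A-B index held 9 further columns that match no label, which were not used here. The A-B index score was deposited by the authors per bin of 20 kb, without counts per bin. The signal tables of H3K27ac enhancers were made by the authors with ROSE on pooled replicates after SICER, BWA 0.7.15 and SAMtools 1.3.1 per the labels. TAD calls and tables of non-coding transcripts were not used.

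A PCG entered a test where 80% or more of the libraries in 1 of its groups exceeded 0.5 TPM. The tests were made with edgeR 4.0.16 (TMM, quasi-likelihood test, limma 3.58.1, R 4.3.3), with Benjamini-Hochberg adjustment over all PCGs tested and calls at an adjusted p below 0.05. Errors of log2 differences are SE. Tests were fitted to the groups compared: pairs of nutritional groups within an AT, the 4 ATs within a group, and the interaction of both. On simulated data the fits recovered 80% of 2-fold and 40% of 1.5-fold changes between WG and WL in GOM, 84% and 46% over the 4 ATs of WL, 62% and 17% between NC and WG in ULB, and 27% and 3% for the interaction of NC and WL with AT. Alternatives were DESeq2 1.42.0, DESeq2 size factors in edgeR, no filter, the PCG share, the replicate block and NC ULB libraries left out in turn. The library sets, the T cell limit of 100 TPM and fits without WG GOM replicate 35 were added after seeing the data. Correlations used log2(TPM + 1) with a two-sided test of 100000 permutations, whose smallest p is 1e-05, and Benjamini-Hochberg adjustment over 16 relations.

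The members, lists and rules were chosen with earlier results of these data known. Values in all groups are given for PSMB7, PSMB8, PSMB9, PSMB10, PSME1 and PSME2, and otherwise the 3 members called higher and the 3 called lower with the largest log2 difference per comparison are named, with examples by role chosen after their values were seen. Samples with the same replicate number were correlated between ATs after the group mean was removed. Every pair was above 0.1 for MAD and ULB in WG (30 of 30) and for MAD and RAD in WL (10 of 10). The replicate block is read as a pairing in these 2 comparisons. In the other AT pairs of WG most numbers looked paired too. Their median r was 0.507 to 0.582, with 35 of 36 (GOM and MAD), 37 of 39 (GOM and RAD) and 37 of 38 (GOM and ULB) above 0.1. In NC and the other pairs of WL the median r was -0.0116 to 0.294. The main tests between ATs use no pairing and treat libraries as independent. The authors' own comparisons were not used. Promoters were read with samtools 1.23.1 and tables with pandas 2.3.3 in Python 3.11.15. Some results on interferon signalling and class I genes are not reported here.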

Additional observations from a re-analysis of the deposited data

Results flagged for a closer look

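In WL ULB, replicate 2 had 207 TPM of PSMB7, the highest of 10 libraries, and its gap to the next library took 0.511 of the range of the group. Its PCG share was 94.5%. It was the 1 library flagged in 36 groups examined, and chance gives about 1 in 20 groups. The flag does not find every unusual library. WG GOM replicate 35, with 5.32 TPM of PSMB7, the lowest of the 236 libraries, was not flagged.

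For 4 members the difference between nutritional groups differed across the ATs, by edgeR's test of the interaction. PSMC3IP differed between NC and WG (adjusted p = 0.00553), falling by 1.81 on the log2 scale in GOM and by 1.51 in RAD. It was low, with a median of 1.08 TPM and 210 of 236 libraries above 0.5 TPM. PSMB8 differed between WG and WL (adjusted p = 0.0288), with its called difference of 1.33 in MAD. Between NC and WL the interaction was called for PSMB8 (adjusted p = 0.039), PSMC3IP (adjusted p = 0.0303), PSMB1 (adjusted p = 0.0355) and PSME1 (adjusted p = 0.0414), beside 9.52% of PCGs. Without the 5 libraries high in T cell markers, edgeR called 0 members between WG and WL or between NC and WL (1 and 12 at an unadjusted p below 0.05), beside 1.21% and 1.71% of PCGs. The cause was not tested.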

How the results depend on the processing

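Of 249 alternative values for counts of called members and for correlations, 150 stayed on the same side or within 1.5 times. NC against WL in GOM kept its count (28) within 1.5 times throughout, but no set holds both groups. The counts that moved follow, with the count over all libraries first. They count members alone, and the share of PCGs called in the same fit is not given beside them.

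For NC against WG in GOM (18) the count was 9 with a term for the PCG share set, 0 without low-share libraries, 4 with a term for the library set, 10 in set 1 and 0 in set 1 without low-share libraries. For MAD (1) it was 4 with DESeq2, 4 with no filter, 10 with the library set term, 6 in set 1, 0 in set 2, 2 and 0 in these sets without low-share libraries, and 3 and 0 in sets 1 and 2 without the T cell marker libraries. For RAD (10) it was 1 with the PCG share set, 0 without low-share libraries, 1 in set 2, and 1 in either set without low-share libraries. For ULB (1) it was 4 with the library set term and 8 in set 1. Leaving out single NC ULB libraries gave 1 to 2, with 2 without replicate 7, and PSMB10 was not called without replicate 2 (0.59).

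For WG against WL in GOM (0) the count was 1 with DESeq2, 1 with DESeq2 size factors, 9 with the library set term, 5 in set 2, 1 in set 2 without low-share libraries and 3 without WG GOM replicate 35. For MAD (8) it was 3 with the PCG share set, 2 with the share as a continuous term, 0 without low-share libraries, 22 with the library set term, 17 in set 2, 2 in set 2 without low-share libraries, 2 without the T cell marker libraries and 4 in set 2 without them. For RAD (1) it was 0 with the continuous share, 12 with the library set term, 10 in set 2 and 6 in set 2 without low-share libraries. For ULB (2) it was 1 without low-share libraries, 28 with the library set term, 28 in set 2 and 23 in set 2 without low-share libraries.

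For NC against WL in MAD (18) the count was 4 without low-share libraries, 8 in set 2, 0 in set 2 without low-share libraries, 9 without the T cell marker libraries and 5 in set 2 without them. For RAD (17) it was 9 with the PCG share set, 2 without low-share libraries, 8 with the library set term, 7 in set 2 and 6 in set 2 without low-share libraries. For ULB (4) it was 7 with DESeq2, 9 with the library set term, 12 in set 2 and 9 in set 2 without low-share libraries.

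For the 4 ATs the count in NC (20) was 4 without low-share libraries and 13 with the continuous share. In WG (22) it was 36 with the library set term and 34 in set 1. In WL (24) it was 15 with the PCG share set, 1 without low-share libraries and 13 without the T cell marker libraries. The interaction NC against WG by AT (1) came to 0 with the PCG share set and without low-share libraries, and to 4 with the continuous share. WG against WL by AT (1) came to 0 with the PCG share set, the continuous share, and without low-share or T cell marker libraries, and to 3 with the library set term. NC against WL by AT (4) came to 2 with no filter or the library set term, and to 0 with the PCG share set, the continuous share, and without low-share or T cell marker libraries. Leaving out single NC ULB libraries gave 2 to 10 (8 without replicate 5, 2 without replicate 7 and 10 without replicate 9).

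With the replicate number as a block the count was 0 for NC against WG in each of the 4 ATs, 3 for WG against WL in RAD, 0 for NC against WL in ULB, 39 for the 4 ATs in WG, and 6, 3 and 10 for the interactions NC against WG, WG against WL and NC against WL. Between nutritional groups the same number had a median r of -0.127 to 0.105, so it does not pair those samples. From MAD to ULB in WG and from MAD to RAD in WL, every number had an r above 0.1. There the block gave 24 higher and 3 lower in place of 18 and 1, and 16 and 5 in place of 11 and 3. The shares of PCGs called with the block are not given here, so these counts do not show whether the members changed more than PCGs. In WG, 26 of 36 GOM libraries matched their own number best in MAD.

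Within the library sets r of PSMB8 with PSMB7 was -0.229 in GOM of set 1, 0.248 and 0.0184 in MAD, 0.0737 and 0.230 in RAD, and 0.0044 and 0.248 in ULB of sets 1 and 2. Some differences in MAD changed sign within set 2: without low-share libraries PSMB8 (-0.0054) and PSMB9 (-0.42) between WG and WL, and PSMB9 (-0.10) and PSME2 (-0.42) between NC and WL, and without the T cell marker libraries PSMB9 (-0.048) between WG and WL and PSME2 (-0.32) between NC and WL. The causes were not tested. Relations of PSMB8 with PSMB5 were not run. The 5 NC ULB libraries, the 2 or 3 NC libraries per AT of set 2 and the 2 NC GOM libraries above 88% PCG share limit what these comparisons can show.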
